A study of Mus musculus with 8 samples.

Results

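The genes that cells switch on in response to interferon, together with the genes that present peptides on MHC class I, were followed in 8 mouse livers. The set holds 40 genes, chosen by symbol for their known roles, of 45706 gene identifiers counted. All 40 were matched, and all 40 were among the 15491 genes that passed the filter on low counts, with 48 reads as the lowest count of any member in any liver. By role they are 4 transcription factors, 5 nucleic acid sensors or their partners, 12 antiviral effectors, the ISG15 modifier and its protease, 6 interferon-inducible GTPases, 4 genes of antigen presentation and 7 other induced genes.

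Male mice, strain C56B6/J in the labels, were injected in the tail vein at 6 weeks of age with an adeno-associated virus of serotype 2/8 (AAV). The vector carried GFP and a short hairpin RNA in a microRNA backbone (mirE/shRNA) behind the chicken β-actin promoter, which is active in many cell types. The hairpin was directed at *Srsf10*, a splicing factor gene (*Srsf10-kd*, n = 4), or was a control (*Ctrl*, n = 4). A diet with 60% of calories from fat began 4 weeks later and lasted 12 weeks, so every liver had received a virus, a hairpin, GFP and the diet, and no liver without them was analysed here. Whole-liver polyadenylated RNA was sequenced to 50456404 to 59697241 counted reads per liver. In bulk tissue, fewer cells of a type and less RNA per cell cannot be told apart. *Srsf10* itself was at 31.6, 33.7, 35.3 and 30.9 counts per 1000000 reads (CPM) in *Ctrl* 1 to 4 and at 34.3, 34, 41 and 36.5 CPM in *Srsf10-kd* 1 to 4, and its mRNA was thus no lower in livers with the *Srsf10-kd* label (log2 fold change 0.15 ± 0.10 (SE), edgeR adjusted p = 0.378). Directions below are between these labelled groups.

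Interferons are secreted proteins that warn neighbouring cells of a virus. Type I interferons bind the receptor chains IFNAR1 and IFNAR2, and the kinases JAK1 and TYK2 then activate STAT2, which joins IRF9 in a complex that binds the interferon-stimulated response element (ISRE) of target promoters. Interferon gamma acts through IFNGR1 and IFNGR2, at gamma-activated sites (GAS). The induced genes block viral RNA and proteins, and the same signals raise the immunoproteasome, the peptide transporter TAP and MHC class I, so that infected cells can be seen by T cells. Hepatocytes answer both kinds of interferon, and resident liver macrophages, the Kupffer cells, are a source of the signals.

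Both elements were looked for in the promoters of these genes. The sequences below are stretches upstream of RefSeq start sites (GRCm38.p6), with the cores in capitals, shown 5′ to 3′ on the strand of the gene for members whose values are described further on. The ISRE core was searched as GAAANNGAAA and the GAS core as TTCNNNGAA, on both strands, so an ISRE core on the other strand reads as its reverse complement. Where cores overlap, as in *Isg15* and *Bst2*, the capitals run together.
B2m (chr2:122147528-122147577, plus strand): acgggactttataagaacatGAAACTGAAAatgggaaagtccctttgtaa
Bst2 (chr8:71537567-71537628, minus strand): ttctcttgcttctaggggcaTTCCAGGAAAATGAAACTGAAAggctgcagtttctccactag
Isg15 (chr4:156200855-156200916, minus strand): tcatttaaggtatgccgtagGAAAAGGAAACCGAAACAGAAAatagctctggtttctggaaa
Ifit1 (chr19:34640765-34640833, plus strand): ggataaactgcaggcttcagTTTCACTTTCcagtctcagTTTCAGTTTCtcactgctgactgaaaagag
Ifit3 (chr19:34583353-34583436, plus strand): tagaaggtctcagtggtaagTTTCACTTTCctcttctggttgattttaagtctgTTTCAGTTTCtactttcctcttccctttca
Stat2 (chr10:128270256-128270305, plus strand): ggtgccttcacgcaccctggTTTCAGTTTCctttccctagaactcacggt
Cxcl10 (chr5:92349073-92349122, minus strand): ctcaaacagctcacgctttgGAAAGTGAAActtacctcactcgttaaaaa
Irf1 (chr11:53769904-53769952, plus strand): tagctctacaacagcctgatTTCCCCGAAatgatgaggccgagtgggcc

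*Isg15* had 3 overlapping ISRE cores between 78 and 57 bases before its start site. *Ifit1* and *Ifit3* each had 2 separate ones in the same pair of spellings, and *Bst2* had 2 that overlapped each other and a GAS core. *B2m* and *Stat2* had 1 ISRE core each, and *Irf1* had a GAS core alone. A promoter window, 250 bases before to 50 after a start site, was at hand for 30 of the 40 members. In 17 of these 30 (56.7%) a window held an ISRE core, against 3.99% of all 27025 genes with a window, and in 8 (26.7%) it held a GAS core, against 9.55% of all genes. Either core was present for 21 members, among them all 5 of the inducible GTPases that had a window, and for 9 members, *Irf7*, *Irf9* and *Tap1* among them, these letters were not found in the window.

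**Figure D1:**
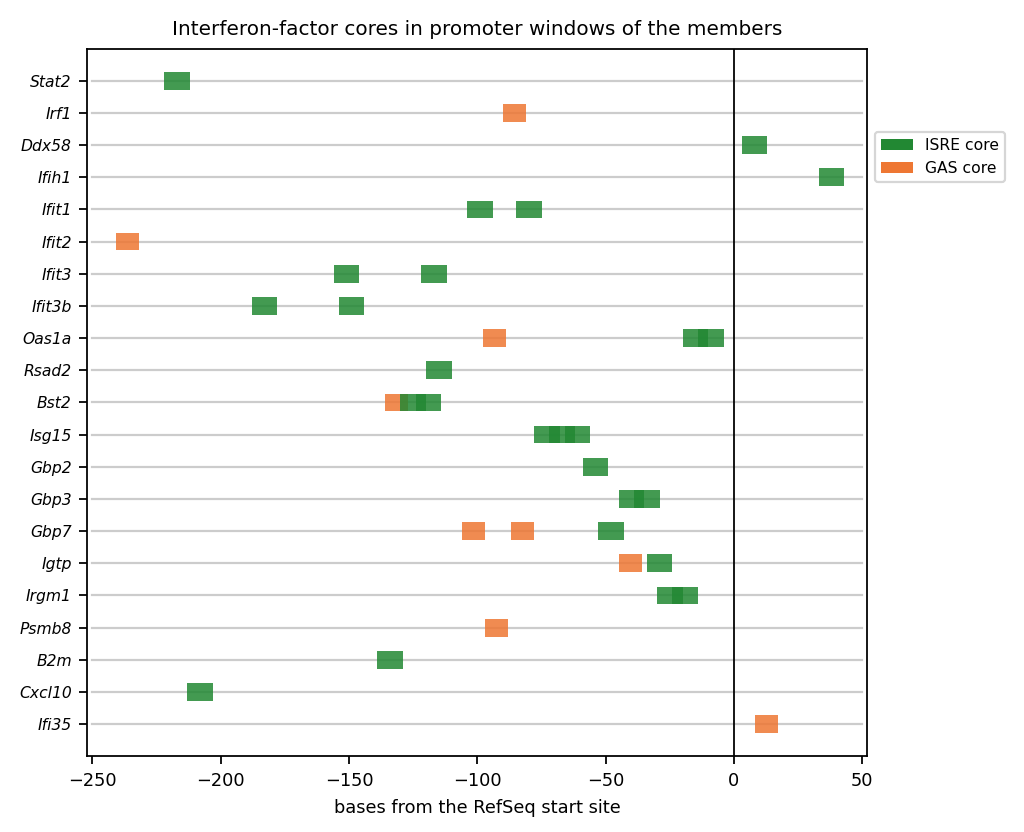
Position of ISRE cores (green) and GAS cores (orange) in the RefSeq promoter windows of the 21 members that hold either, in bases from the start site, with grey lines for the 300-base windows. Cores lie upstream in 18 of these members and after the start site in *Ddx58*, *Ifih1* and *Ifi35*.

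*B2m*, the invariant light chain of MHC class I, was by far the most abundant member. Per kilobase of its longest annotated transcript it stood at 1770.0 CPM over the 8 livers. The next were *Bst2*, which encodes tetherin and holds budding virions at the cell surface, at 128, *Iigp1*, a GTPase that attacks parasite vacuoles, at 124, and *Ifi27*, a small mitochondrial and nuclear envelope protein, at 105 CPM per kilobase. The median member was at 6.96 and the lowest, *Mx1*, at 0.487 CPM per kilobase. The induced GTPase *Mx1* blocks influenza viruses, and many laboratory strains carry a non-functional copy. The standard error of a member's log2 fold change between the groups was 0.174 at the median and 0.323 at most.

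With edgeR, 11 of 15491 genes (0.071%) passed an adjusted p of 0.05 between the groups, and no member did. At an unadjusted edgeR p under 0.05, *B2m* and *Bst2* were higher in *Srsf10-kd* and no member was lower, that is 2 and 0 of 40 against 11.2% of all genes higher and 10.6% lower. The 4 livers of each group did not overlap for *B2m*, which was higher in *Srsf10-kd*, and for *Parp14*, which was lower, where 6.73% and 7.53% of all genes were separated in these directions. DESeq2 called 5.27% of genes and 1 member, *B2m*, and limma-voom with quality weights called 11.7% of genes and 2 members, *B2m* and *Bst2*. The median log2 fold change was 0.04 over the members and 0.01 over all genes, 21 members lay above 0 and 19 below, and the values ran from -0.41 for *Mx1* to 0.63 for *B2m*. The counts moved with single livers. Without *Ctrl* 3, 7 members were higher at an unadjusted edgeR p under 0.05 (13.3% of all genes) and 8 were separated, 6 higher and 2 lower (15.3% and 16.4% of all genes). Without *Ctrl* 1, 2 or 4 or *Srsf10-kd* 3, *Bst2* was no longer under 0.05 and *B2m* was the only member higher (6.77% to 7.86% of all genes). *Bst2* was also lost without *Srsf10-kd* 4, where *B2m* and *Psmb8* were higher (9.57% of all genes). Without *Srsf10-kd* 2, 5 members were higher (12.3% of all genes) and *Mx1* was lower (11% of all genes). *Ifih1* was lower without *Ctrl* 4 (7.56% of all genes), and *Ifih1* and *Parp14* without *Srsf10-kd* 1 (10.2%). The members' median log2 fold change was 0.12 without *Ctrl* 3 and fell below 0 without *Ctrl* 2 (-0.02), *Ctrl* 4 (-0.06) or *Srsf10-kd* 1 (-0.03). No member passed the adjusted threshold in any of these edgeR fits.

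**Figure D2:**
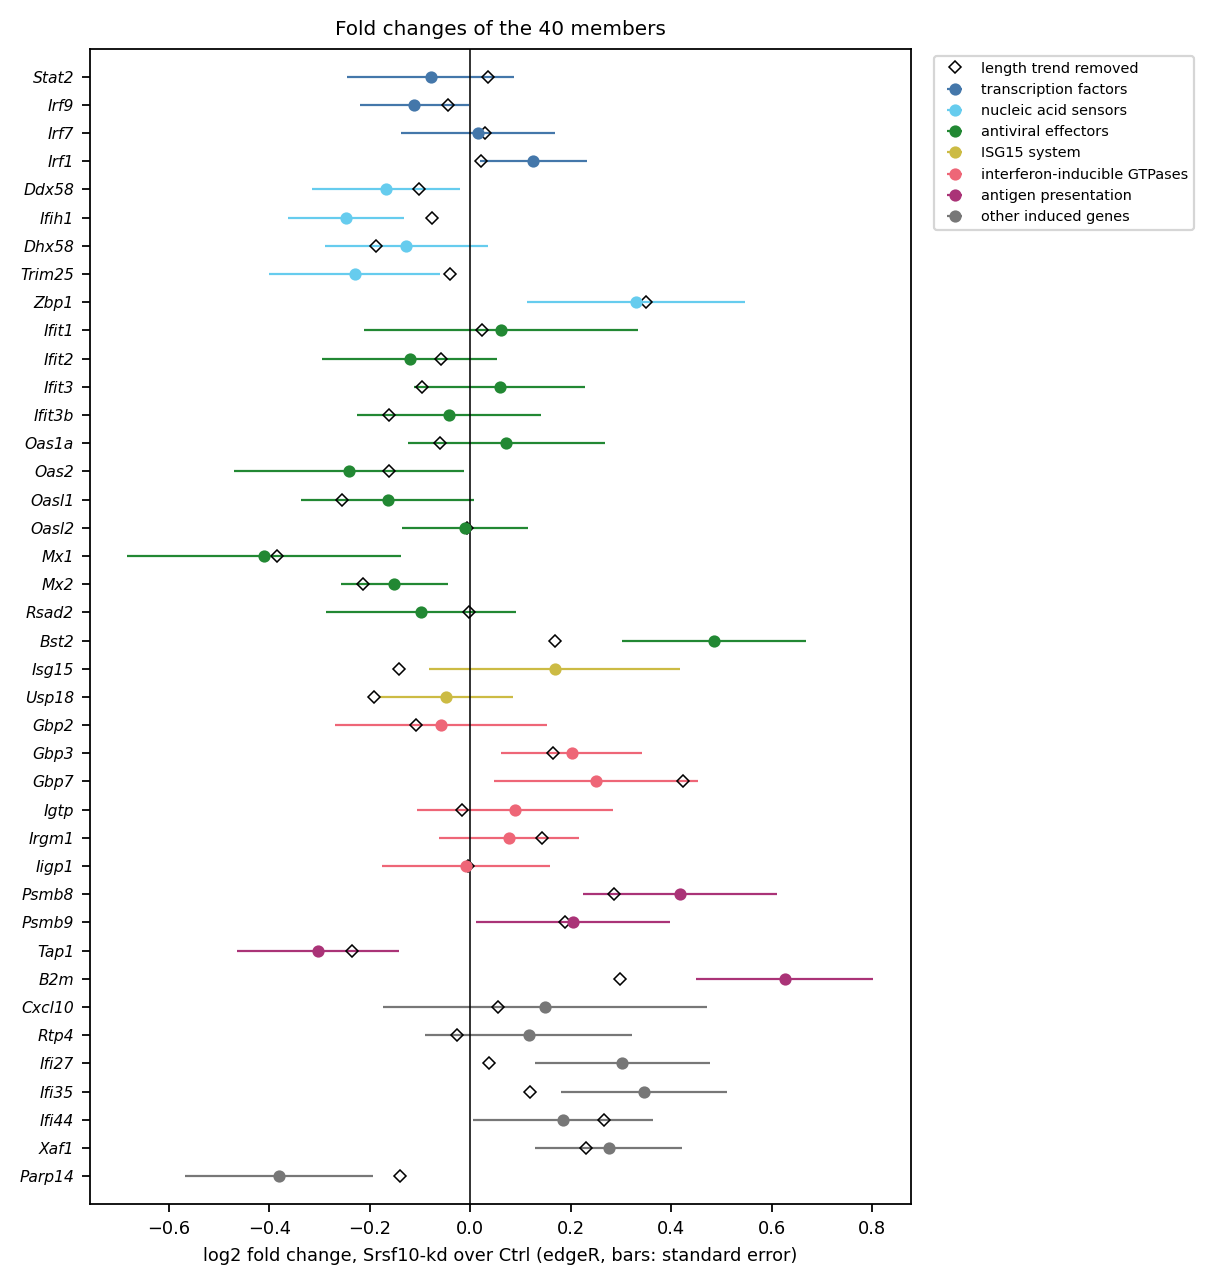
Log2 fold change, *Srsf10-kd* over *Ctrl*, of each member (filled points, coloured by role, bars are standard errors from edgeR, n = 4 livers a group), with the value after removal of each library's trend on transcript length (open diamonds). *B2m* at 0.63 and *Bst2* at 0.49 lie farthest to the right and move to 0.30 and 0.17 with the trend removed, while most members lie within 2 standard errors of 0.

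The transcription factors showed no called difference between the groups. None of the 4 passed, and their log2 fold changes ran from -0.11 (*Irf9*) to 0.13 (*Irf1*). *Stat2*, the most abundant of them per kilobase, was at 71.2, 57.4, 44.7 and 70.4 CPM in *Ctrl* 1 to 4 and at 64.9, 60.9, 46.3 and 58.7 CPM in *Srsf10-kd* 1 to 4, and *Ctrl* 3 and *Srsf10-kd* 3 were its lowest livers. *Irf7*, which amplifies type I interferon production, was at 29.6 CPM in *Ctrl* and 29.9 CPM in *Srsf10-kd* on average, a log2 fold change of 0.02 ± 0.15 (SE). *Irf1*, the factor induced through GAS elements, was at 26.6 ± 2.62 (SD, n = 4) and 29.1 ± 2.15 CPM (SD, n = 4).

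Sensors of viral RNA lay slightly below 0 in 4 of 5 cases, without a call. *Ddx58*, *Ifih1* and *Dhx58* encode RIG-I, MDA5 and LGP2, which recognise double-stranded or uncapped RNA in the cytosol, and *Trim25* encodes a ubiquitin ligase of the RIG-I pathway. *Ifih1* had the smallest p of the group, with a log2 fold change of -0.25 ± 0.12 (SE, edgeR unadjusted p = 0.0593, adjusted p = 0.243). *Trim25*, the most abundant sensor gene per kilobase, was at 113, 97.5, 76.7 and 114 CPM in *Ctrl* 1 to 4 and at 83.4, 102, 64.9 and 91.6 CPM in *Srsf10-kd* 1 to 4. *Srsf10-kd* 3 was the lowest of all 8 for *Ddx58*, *Ifih1*, *Dhx58* and *Trim25*. *Zbp1*, a sensor of Z-form nucleic acids that can start cell death, went the other way, at 9.51, 9.04, 10.8 and 6.53 CPM in *Ctrl* and 16, 9.23, 8.7 and 11.2 CPM in *Srsf10-kd*. Its value rested on *Srsf10-kd* 1, the highest of the 8, and the groups overlapped (0.33 ± 0.22 (SE), edgeR adjusted p = 0.367).

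Antiviral effectors were the largest group, and 8 of 12 had a log2 fold change below 0. *Ifit1*, whose protein binds viral RNA that lacks cap methylation, varied most among them within a group. It was at 24.9, 15.7, 32.4 and 12.4 CPM in *Ctrl* 1 to 4 and at 22, 22.5, 26.8 and 17.8 CPM in *Srsf10-kd* 1 to 4. Both the highest and the lowest of the 8 livers for *Ifit1* were thus *Ctrl* livers, and the mean difference was 0.06 ± 0.27 on the log2 scale (SE). *Ifit2*, *Ifit3* and *Ifit3b* were at -0.12, 0.06 and -0.04. Reads of *Ifit3* and *Ifit3b* can be hard to assign, since 41.1% of the 75-base stretches of *Ifit3* are also in *Ifit3b*. *Rsad2*, which encodes viperin, was at 23.1 ± 6.62 CPM (SD, n = 4) in *Ctrl* and 21.6 ± 1.66 CPM (SD, n = 4) in *Srsf10-kd*. The oligoadenylate synthetase genes, whose products activate RNase L, and the Mx genes ranged from -0.41 (*Mx1*) to 0.07 (*Oas1a*, which shares 47.6% of its 75-base stretches with *Oas1g*).

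*Bst2* stood apart among the effectors. It was at 82.2, 82, 107 and 65.1 CPM in *Ctrl* 1 to 4 and at 109.5, 91.2, 148 and 122 CPM in *Srsf10-kd* 1 to 4. The groups overlapped because *Ctrl* 3 exceeded *Srsf10-kd* 2. The log2 fold change was 0.49 ± 0.18 (SE, n = 4 a group), with an edgeR unadjusted p of 0.0242, adjusted p of 0.181 and DESeq2 adjusted p of 0.121. limma-voom, which gave some libraries less weight, put its adjusted p at 0.0403. An exact two-sided permutation test over the 70 assignments of 8 livers gave p = 0.0571.

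The ubiquitin-like modifier *Isg15* was, like *Ifit1*, most variable among the *Ctrl* livers. It stood at 13.2, 10.6, 18.3 and 7.5 CPM in *Ctrl* 1 to 4 and at 13.4, 11.5, 17.9 and 12.8 CPM in *Srsf10-kd* 1 to 4, so that the *Srsf10-kd* livers lay inside the *Ctrl* range (log2 fold change 0.17 ± 0.25 (SE), edgeR adjusted p = 0.695). *Usp18*, the protease that removes ISG15 and dampens IFNAR signalling, was at -0.05 ± 0.13 on the log2 scale (SE). Neither gene of the pair was called by any of the 3 tools.

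Interferon-inducible GTPases damage the membranes around intracellular pathogens. *Iigp1*, the most abundant of them, was at 434, 409, 439.7 and 267 CPM in *Ctrl* 1 to 4 and at 413, 355, 349.5 and 424 CPM in *Srsf10-kd* 1 to 4. Its group means were 388 and 385 CPM, a log2 fold change of -0.01 ± 0.17 (SE), and *Ctrl* 4 lay well below the other 7. *Gbp7* varied most within a group, at 15.9, 14.2, 20.1 and 9.27 CPM in *Ctrl* and 19.5, 15.5, 18.2 and 17.6 CPM in *Srsf10-kd*. *Ctrl* 4 was the lowest for all 6 GTPases, *Gbp2*, *Gbp3*, *Igtp* and *Irgm1* included. None of the 6 passed a test, and their log2 fold changes lay between -0.06 (*Gbp2*) and 0.25 (*Gbp7*).

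Antigen presentation held the largest positive value. *B2m* (ENSMUSG00000060802, GRCm38 chr2:122147686-122153083, plus strand) was at 1336, 1179, 1238 and 1034 CPM in *Ctrl* 1 to 4 and at 1585, 1605, 2536 and 1662 CPM in *Srsf10-kd* 1 to 4. All 4 *Srsf10-kd* livers lay above all 4 *Ctrl* livers, and *Srsf10-kd* 3 lay far above the other 3. On average *B2m* was at 1197 ± 126 CPM in *Ctrl* and at 1847 ± 461 CPM in *Srsf10-kd* (mean ± SD, n = 4 each), a log2 fold change of 0.63 ± 0.18 (SE). edgeR gave an unadjusted p of 0.00532 and an adjusted p of 0.13, which did not pass, whereas DESeq2 gave an adjusted p of 0.0216 and limma-voom of 0.0296. The exact permutation test gave p = 0.0286, the smallest that 4 livers against 4 allow. Without *Srsf10-kd* 3, the *B2m* log2 fold change was 0.44.

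*Psmb8* and *Psmb9*, which encode catalytic subunits of the immunoproteasome, and *Tap1*, a chain of the peptide transporter, did not share the separation of *B2m*. *Psmb8* was at 28.6, 26.6, 40 and 22.1 CPM in *Ctrl* 1 to 4 and at 42, 32.7, 48.3 and 33.6 CPM in *Srsf10-kd* 1 to 4 (log2 fold change 0.42 ± 0.19 (SE), edgeR adjusted p = 0.238). *Psmb9* was at 15.1, 14.1, 23.4 and 12.5 CPM in *Ctrl* and 18.6, 16.2, 22 and 18.2 CPM in *Srsf10-kd* (0.20 ± 0.19). In both cases *Ctrl* 3 was the only *Ctrl* liver above the lowest *Srsf10-kd* liver. *Tap1* had the opposite sign, at 31.1, 29.1, 39.6 and 33.1 CPM in *Ctrl* and 30.7, 26.4, 19.5 and 31.2 CPM in *Srsf10-kd* (-0.30 ± 0.16, edgeR adjusted p = 0.285). *Psmb9* and *Tap1* lie head to head and share 212 bases of exon, and *Psmb8* shares 498 bases with another annotated gene, so reads there could only be assigned by strand.

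**Figure D3:**
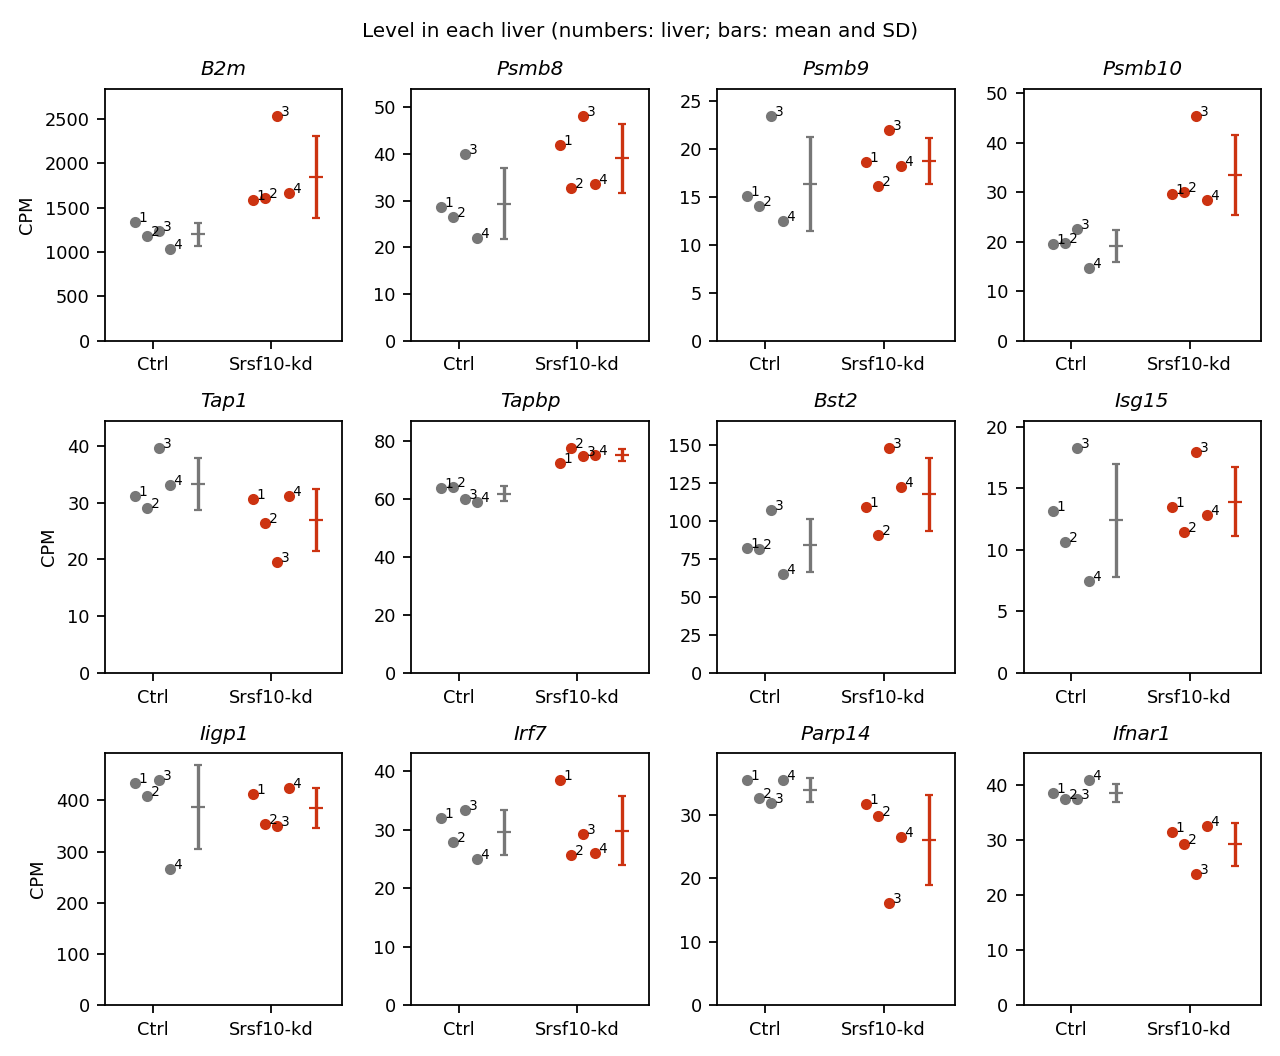
CPM of 12 genes in each liver (points, numbered by liver, *Ctrl* grey and *Srsf10-kd* red), with mean and SD beside them and axes from 0. *B2m*, *Psmb10* and *Tapbp* are separated upwards and *Ifnar1* and, with this scaling alone, *Parp14* downwards, while *Isg15*, *Iigp1* and *Irf7* overlap and *Ctrl* 4 is the lowest of its group in most panels.

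Among the remaining induced genes, 6 of 7 had a log2 fold change above 0. *Ifi35*, a partner of NMI, was at 0.35 ± 0.17 (SE), *Xaf1*, a pro-apoptotic factor, at 0.28 ± 0.15 and *Ifi27* at 0.30 ± 0.17. *Ifi27* was at 82.6, 87.2, 107 and 89.8 CPM in *Ctrl* 1 to 4 and at 116, 83.1, 103 and 150.0 CPM in *Srsf10-kd* 1 to 4, with *Srsf10-kd* 4 highest and *Srsf10-kd* 2 and 3 inside the *Ctrl* range. *Cxcl10*, the chemokine that draws activated T cells, was at 5.62, 2.16, 3.46 and 1.88 CPM in *Ctrl* and 3.31, 3.79, 4.55 and 2.9 CPM in *Srsf10-kd*, and it differed 3-fold between its highest and lowest liver, the widest range of any member. Both extremes of *Cxcl10* were *Ctrl* livers. *Parp14*, an ADP-ribosyltransferase, was at 35.5, 32.7, 31.9 and 35.5 CPM in *Ctrl* 1 to 4 and at 31.8, 29.9, 16.1 and 26.5 CPM in *Srsf10-kd* 1 to 4. The groups of *Parp14* were separated only by the small gap between *Ctrl* 3 and *Srsf10-kd* 1, and they overlapped with DESeq2's size factors or the library size alone as the scaling (-0.38 ± 0.19 (SE), edgeR adjusted p = 0.258).

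Upstream of the members, the interferons themselves were at or near 0. The 10 ligand genes examined, *Ifnb1*, 4 alpha genes, *Ifnk*, *Ifne*, *Ifng* and 2 lambda genes, had 19 reads among them over all 8 livers, at most 6 in 1 liver, and 6 of them had none. Receptor genes were readily detected. *Ifnar1* was at 38.7, 37.6, 37.4 and 41 CPM in *Ctrl* 1 to 4 and at 31.5, 29.3, 23.9 and 32.7 CPM in *Srsf10-kd* 1 to 4, so every *Srsf10-kd* liver lay below every *Ctrl* liver. Its log2 fold change was -0.40 ± 0.11 (SE), with an edgeR adjusted p of 0.131, a DESeq2 adjusted p of 0.0459 and a limma-voom adjusted p of 0.0331. *Ifnar2* (0.04 ± 0.12), *Ifngr1* (0.12 ± 0.11) and *Ifngr2* (-0.04 ± 0.17) had no separation or call. *Jak1* was at -0.27 and *Il10rb*, a chain of the lambda receptor, at 0.39, each with an unadjusted edgeR p under 0.05 and an adjusted one above it.

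Of 13 tested sensing and signalling genes, *Irf5* was higher and *Tlr7*, the endosomal receptor for single-stranded RNA, and *Ikbke* were lower at an unadjusted edgeR p under 0.05. Of all genes, 11.2% were higher and 10.6% lower at that threshold. *Tlr7* was at -0.62 ± 0.20 (SE, edgeR adjusted p = 0.15) on means of 2.3 and 1.49 CPM. All 6 feedback inhibitors had log2 fold changes above 0. Among them *Ptpn2*, a phosphatase that acts on JAK and STAT proteins, was at 0.39 ± 0.12 (SE, edgeR adjusted p = 0.138), with its groups separated, and *Pias4* at 0.38 ± 0.16. None of these lists had a gene past the adjusted threshold in edgeR. limma-voom called *Tlr7* (adjusted p = 0.0285) and *Ptpn2* (adjusted p = 0.0313), against 11.7% of all genes. *Tlr7* (lower) and *Pias4* (higher) also had separated groups, where 7.53% and 6.73% of all genes were separated in these directions.

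A further 49 interferon-induced genes outside the 40 were mixed as well. At an unadjusted edgeR p under 0.05, 5 of the 49 were higher and 4 lower, against 11.2% and 10.6% of all genes. A log2 fold change above 0 was found for 21 and below 0 for 28, and the median was -0.06. *Ifitm3* and *Ifitm2*, which stop viruses from fusing with endosomes, were at 0.52 ± 0.17 and 0.41 ± 0.13 (SE), and *Nmi* at 0.41 ± 0.12. *Dtx3l*, a ubiquitin ligase, was at -0.50 ± 0.16, and *Eif2ak2*, the kinase PKR that halts translation on double-stranded RNA, at -0.32 ± 0.10. DESeq2 called *Nmi* (adjusted p = 0.0462) and *Eif2ak2* (adjusted p = 0.0431) of the 49, against 5.27% of all genes.

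The rest of the MHC class I pathway was read beside *B2m*. The heavy chain genes *H2-K1* and *H2-D1* were at 0.14 ± 0.14 and 0.13 ± 0.12 (SE) on the log2 scale. *H2-Q4*, *H2-Q6*, *H2-Q7*, *H2-T22* and *H2-M3* were at 0.16, 0.10, 0.07, 0.12 and 0.17. *H2-T23* had the largest value, 0.27 ± 0.15 (SE, edgeR unadjusted p = 0.0996). All of these listed heavy chain genes thus lay above 0, as did 7954 of all 15491 genes tested. None of these heavy chain genes had an unadjusted edgeR p under 0.05. They no longer shared a sign after the length correction. *H2-K1*, *H2-Q6* and *H2-M3* were then at -0.007, -0.001 and -0.03. *H2-D1*, *H2-Q4*, *H2-Q7*, *H2-T22* and *H2-T23* were then at 0.02, 0.11, 0.17, 0.12 and 0.22. *Psmb10*, the remaining catalytic immunoproteasome subunit, was at 19.5, 19.8, 22.6 and 14.7 CPM in *Ctrl* 1 to 4 and at 29.7, 30, 45.5 and 28.5 CPM in *Srsf10-kd* 1 to 4. These groups did not overlap, with a log2 fold change of 0.80 ± 0.18 (SE), an edgeR adjusted p of 0.113 and a DESeq2 adjusted p of 0.0046. *Tapbp*, which encodes the loading chaperone tapasin, was at 63.8, 64.1, 60 and 59.1 CPM in *Ctrl* and 72.5, 77.6, 74.9 and 75.3 CPM in *Srsf10-kd*, also separated, with DESeq2 adjusted p = 0.0267. The proteasome activator genes *Psme1* and *Psme2* were at 0.37 ± 0.15 and 0.45 ± 0.18, and *Erap1*, which trims peptides, was at -0.44 ± 0.15. Over the 19 tested genes of this list, 4 were higher and 1 lower at an unadjusted edgeR p under 0.05 (11.2% and 10.6% of all genes). DESeq2 called 2 of the 19 (5.27% of all genes). The 3 constitutive proteasome subunits that *Psmb8*, *Psmb9* and *Psmb10* replace, *Psmb5*, *Psmb6* and *Psmb7*, were at 0.25, 0.34 and 0.26, with none past either test. With the length trend removed, these 3 were at -0.05, 0.03 and 0.23.

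Markers of other liver cells were read for the same livers, and their part in these values was not tested. The summed level of 5 B and plasma cell markers was 38.8 to 43.5 CPM in *Srsf10-kd* and 19.9 to 35.6 CPM in *Ctrl*, with *Jchain* holding most of it, and that of 4 cholangiocyte markers was 18.55 to 23.8 CPM against 12.45 to 17.1 CPM. These sums did not overlap between the groups, as was the case for *B2m*. The 8 Kupffer cell and macrophage markers summed to 160.9 to 284.5 CPM in *Srsf10-kd* and 205 to 292 CPM in *Ctrl*, the 11 T and NK cell markers to 2.67 to 4.15 and 3.33 to 4.85 CPM, and the 5 dendritic cell markers to 1.345 to 2.28 and 1.56 to 2.24 CPM. The 4 monocyte markers summed to 31 to 60 CPM in *Srsf10-kd* and 32.9 to 47.6 CPM in *Ctrl*, the 5 endothelial cell markers to 165.8 to 193.5 and 170.3 to 194.5 CPM, and the 5 stellate cell markers to 153 to 275 and 173.8 to 199 CPM. Taken alone, the endothelial markers had log2 fold changes of both signs. *Lyve1* was at 0.57 with separated groups, *Pecam1* at 0.30, *Clec4g* at 0.03, *Kdr* at -0.17 and *Stab2* at -0.57. None of these 5 passed the adjusted threshold in edgeR, and limma-voom called *Lyve1*, *Pecam1* and *Stab2* (11.7% of all genes). *Srsf10-kd* 3, the liver with the most *B2m*, was the highest of the 8 for the summed monocyte and stellate cell markers. Most of these sums there came from 1 gene each, *Lyz2* (57.2 CPM) and *Dcn* (214 CPM). *Ly6c2* and *Des* were also highest in that liver, whereas *Ccr2*, *Itgam*, *Lrat*, *Reln* and *Col1a1* were highest in other livers. No marker was at 0 in all livers. The 6 hepatocyte markers summed to 94140 to 112100 CPM in *Srsf10-kd* and 78070 to 104800 CPM in *Ctrl*, with *Alb* holding most of it. Singly, 2 of the 6 had a log2 fold change above 0, *Alb* (0.22) and *Ttr* (0.39). The other 4 were below 0, *Apoa1* (-0.01), *Cyp2e1* (-0.18), *Hnf4a* (-0.50) and *Cps1* (-0.70), and none of the 6 passed the adjusted threshold in edgeR.

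The median over the members differed more among the *Ctrl* livers than between the groups. For each liver, the median over the members of the deviation of log2 CPM from the 8-liver mean was 0.08, -0.10, 0.21 and -0.32 in *Ctrl* 1 to 4 and 0.12, -0.04, -0.04 and 0.0024 in *Srsf10-kd* 1 to 4. *Ctrl* 3 was thus the highest and *Ctrl* 4 the lowest, and the 4 *Srsf10-kd* livers lay between them. The group means of this profile differed by 0.04, against an SD of 0.23 in *Ctrl* and 0.07 in *Srsf10-kd* (n = 4 each). *Ctrl* 4 was the lowest of the 8 for 23 of 40 members and *Ctrl* 3 the highest for 13. Within *Ctrl* the median SD of a member's log2 CPM was 0.30, against 0.22 for all genes, and within *Srsf10-kd* it was 0.22, against 0.24. The profile was shared across most roles. In *Ctrl* 4 the median deviation was -0.51 for the GTPases, -0.48 for antigen presentation, -0.46 for the other induced genes and -0.44 for the ISG15 pair, but 0.04 for the sensors and -0.0036 for the transcription factors. In *Srsf10-kd* 3 the sensors were at -0.49 and antigen presentation at 0.45.

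As a description over 8 livers that share their libraries' depth and composition, 25 of the 40 members correlated at 0.5 or more with the median of the remaining members. *Irgm1* (0.94), *Gbp2* (0.92), *Ifit2* (0.90), *Ifi44* (0.89) and *Gbp7* (0.89) followed it most closely. *Oas2* (-0.63), *Trim25* (-0.51) and *Stat2* (-0.45) ran against it, with lower levels in *Ctrl* 3 than in the other *Ctrl* livers. *B2m* followed it weakly (0.18). Both livers in which the members stood highest, *Ctrl* 3 and *Srsf10-kd* 1, also had the highest summed MHC class II genes, 193 and 196 CPM against 126 to 179 CPM in the other livers, and the highest Kupffer cell and macrophage markers, 292 and 284.5 CPM against 160.9 to 275 CPM. The remaining livers did not keep the order of the member profile. *Ctrl* 4, lowest in the profile, was at 248.6 CPM for the Kupffer cell and macrophage markers. *Srsf10-kd* 4, at 0.0024 in the profile, was the lowest for these markers at 160.9 CPM. For the summed MHC class II genes, *Ctrl* 4 was at 128.9 CPM and *Srsf10-kd* 2 was the lowest at 126.4 CPM. How these levels go with the profile was not tested.

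**Figure D4:**
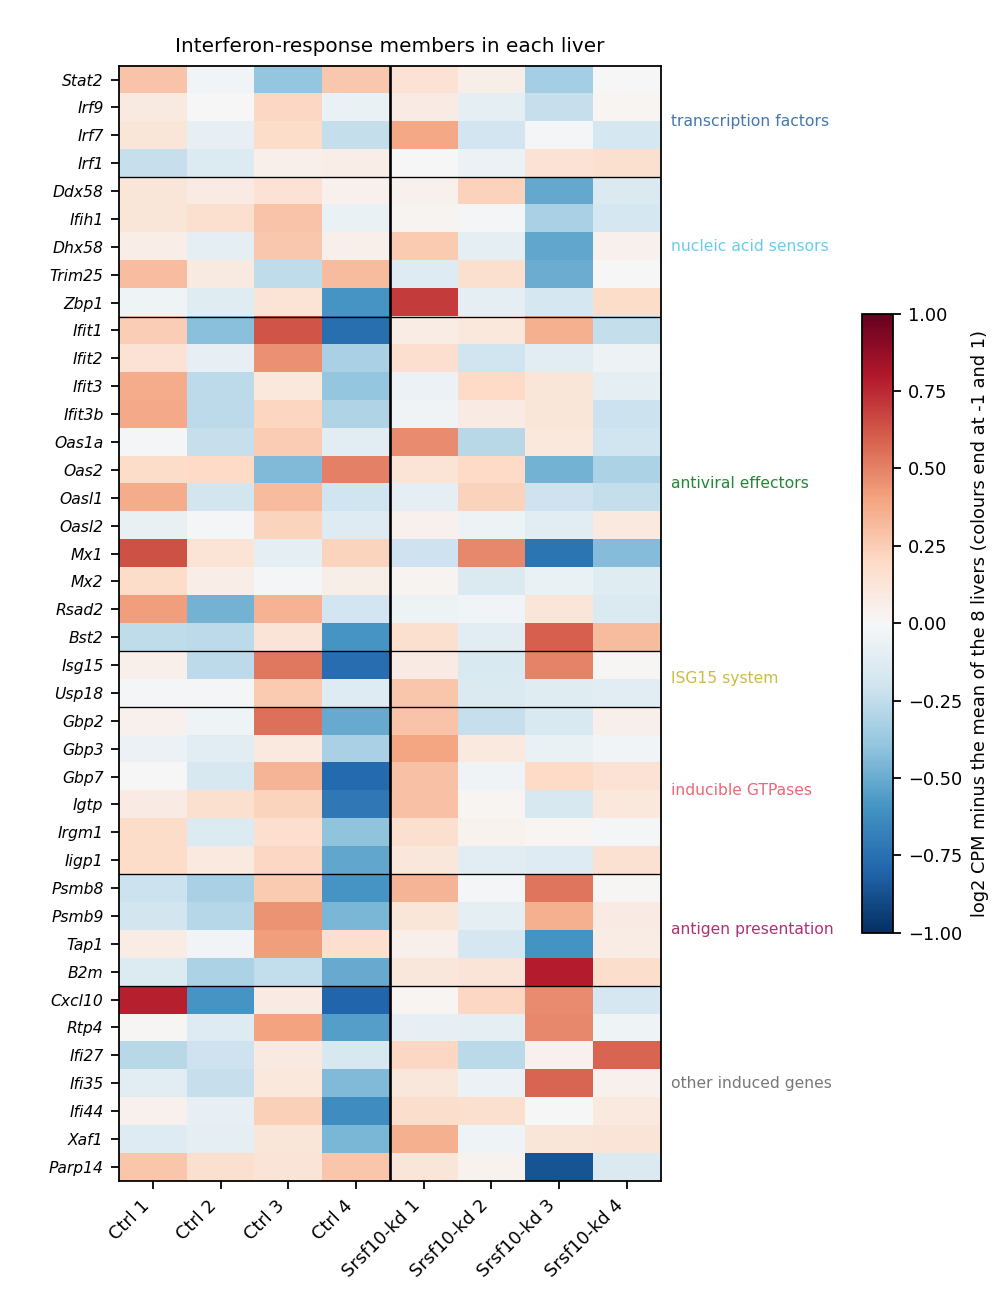
Log2 CPM of each member in each liver minus its mean over the 8 livers (red higher, blue lower), with members in rows by role and livers in columns, *Ctrl* left of the line. The column of *Ctrl* 4 is blue for most genes from *Zbp1* down, that of *Ctrl* 3 mostly red, and *Srsf10-kd* 3 is blue for the sensors and red for *B2m*, *Bst2* and *Psmb8*.

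Fold changes of the members followed transcript length, as those of all genes did. The correlation of the log2 fold change with log2 of the longest annotated transcript was -0.64 over the 40 members and -0.42 over 15429 genes with a length, given as a description across genes that share 8 libraries. All 4 members under 1000 bases, *Isg15*, *Bst2*, *B2m* and *Ifi27*, were above 0, with a median of 0.39, where all genes of that length had a median of 0.41. The 7 members of 4000 bases or more had a median of -0.10, against -0.19 for all genes of that length. With each library's trend on length removed, the log2 fold change of *B2m* was 0.30 (edgeR unadjusted p = 0.0304), that of *Bst2* was 0.17 (edgeR unadjusted p = 0.168), that of *Isg15* was -0.14 and that of *Parp14* was -0.14. *B2m* was then the only member with an unadjusted p under 0.05, its groups were still separated, and the median over the members was -0.01. *Psmb10* kept 0.56 and *Ifnar1* -0.33, while *Psme2* was at 0.15, *Psme1* at 0.24, *Erap1* at -0.26, *Ifitm3* at 0.17 and *Ifitm2* at 0.09. The slope of a library on length was most negative in *Srsf10-kd* 3 (-0.18) and most positive in *Ctrl* 4 (0.13), and library, length and group cannot be told apart further with these 8 livers.

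**Figure D5:**
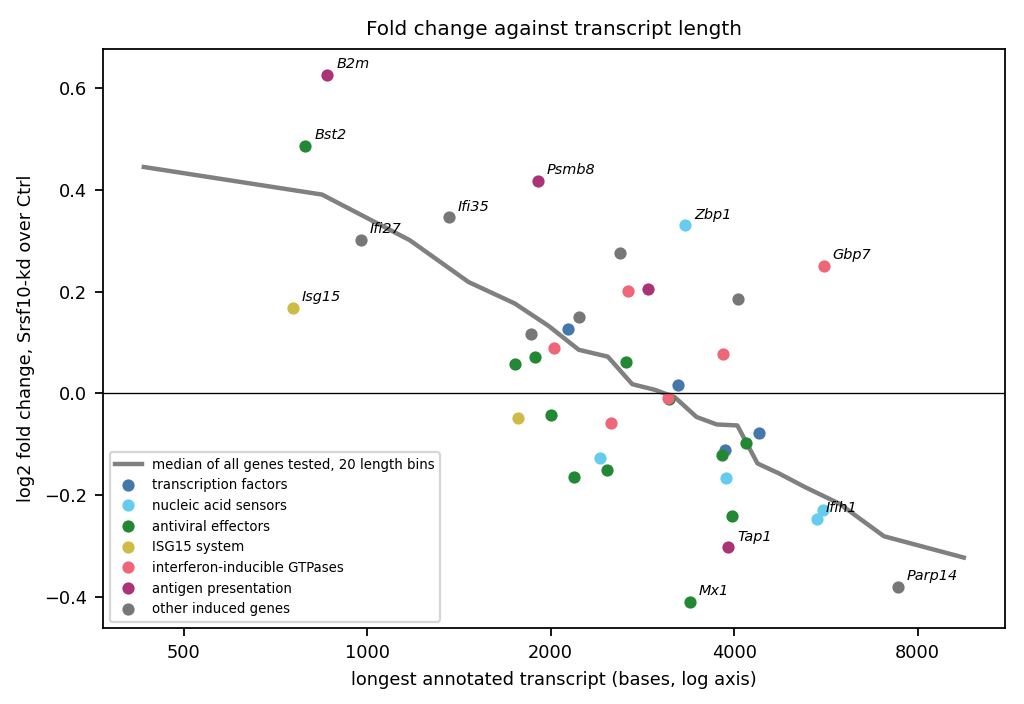
Log2 fold change, *Srsf10-kd* over *Ctrl*, against the longest annotated transcript in bases (log axis) for the 40 members (points, coloured by role) and the median of all genes tested in 20 length bins (grey line). *B2m* and *Bst2* lie above the line at its left end, *Parp14* below it at the right, and *Zbp1* and *Gbp7* are members that stand above the line at longer lengths.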

How the data were processed

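The authors prepared directional poly(A) libraries, aligned paired reads to GRCm38 (mm10) with STAR 2.7.7a, according to the submitters' processing notes, and deposited raw counts per Ensembl gene for 8 livers, without normalization. The annotation release, the strand column and filters on reads are not given in the sources used here. No liver's column went unused, and no pair of columns was a duplicate (the closest of 28 pairs had a chi-square of 46.5 for each degree of freedom).

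Counts were analysed in R 4.3.3 with edgeR 4.0.16 (TMM scaling, filterByExpr, a quasi-likelihood fit on group alone, two-sided, Benjamini-Hochberg adjustment over 15491 genes, threshold 0.05). The study used DESeq2 for gene expression, so DESeq2 1.42.0 was run beside it, as was limma 3.58.1 (voom with quality weights). CPM are counts per 1000000 TMM-scaled reads, and log2 CPM add a prior count of 2. Single values were also compared by exact permutation. Lengths and symbols came from GENCODE M21 (GRCm38), promoter windows from RefSeq (GRCm38.p6). Fits were tested on simulated counts. Alternatives were other scalings and filters, a replicate block, each liver left out, and a correction for transcript length, with a lowess curve (span 0.5) fitted per library to log2 CPM.

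The members and lists were chosen with earlier results of these data known. Values in every liver are given for members past an adjusted p of 0.05 in edgeR or DESeq2, past an unadjusted edgeR p of 0.05, with separated groups, or that are the most abundant or the most variable within a group for their role, and *Psmb8* and *Tap1*, which were added after their values were seen. Beside the members, *Ifnar1*, *Ifnar2*, *Ifngr1*, *Ifngr2* and at most 5 genes of each list with the smallest unadjusted edgeR p under 0.05 are named. The MHC class I heavy chain genes and the constitutive proteasome subunits were added after their values were seen. *Cd74* and the single cell type markers named are also outside this rule. A further gene that the rule named is not reported here.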

Additional observations from a re-analysis of the deposited data

Results flagged for a closer look

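A single liver lay far from the other 3 of its group in 7 of 126 groups of 4 livers examined, where about 1 in 20 independent groups would give 6.3. The groups are genes measured in the same libraries and are not independent, so setting 7 beside 6.3 was not a test. Of the 7, 5 were the third *Srsf10-kd* liver. In that liver *B2m* was at 2536 CPM, with the other 3 at 1585 to 1662 CPM. *Rtp4*, a receptor-transporting protein with antiviral action, was at 18.5 CPM there, with the others at 12.4 to 12.8 CPM. *Psmb10* was at 45.5 CPM, against 28.5 to 30 CPM in the others. *Psme2* was at 119.8 CPM, against 75.1 to 79.9 CPM. *Pias4*, an inhibitor of STAT signalling, was at 27.7 CPM, against 17.0 to 18.2 CPM. *Usp18* was high in the first *Srsf10-kd* liver, at 21.2 CPM with the others at 15.7 to 16.1 CPM. *Il10rb* was high in the third *Ctrl* liver, at 5.19 CPM with the others at 3.81 to 3.89 CPM. The library of the third *Srsf10-kd* liver also had the steepest slope of log2 CPM on log2 transcript length, -0.18, and the cause of its high values was not tested.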

How the results depend on the processing

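No member passed an adjusted p of 0.05 in edgeR under any scaling, filter or left-out liver, nor with a replicate block or the length trend removed. DESeq2 passed 1 member and limma-voom 2, out of 824 and 1814 of all genes, against 11 genes in edgeR's main setting. That number was 46 without a filter on low counts, 59 with a replicate block, and 0 to 544 when 1 liver was left out (544 without *Ctrl* 3, and 0 without *Ctrl* 2 or *Srsf10-kd* 1, 2 or 4, where 2154 to 3656 genes still had an unadjusted p under 0.05), and the cause was not tested. Members lower at an unadjusted p under 0.05 were 3 with limma-voom (16.2% of all genes), 1 without the filter (7.61%), 1 with the block (13.9%) and 0 to 2 with 1 liver left out (6.99% to 14.7%). Members higher were 8 with limma-voom (15.2% of all genes), 4 with the block (14.1%), 1 with the length trend removed (8.49%) and 1 to 7 with 1 liver left out (6.77% to 13.3%). The number of members with separated groups was 1, a higher one, with DESeq2's size factors (6.67% of all genes higher and 7.71% lower), 1 with library size alone (7.88% and 6.56%), 1 with the length trend removed (5.2% and 5.69%) and 2 to 8 with 1 liver left out (at most 15.3% and 16.4%). Separation was not recomputed for fits that leave the CPM unchanged. The members' median log2 fold change, 0.04, was -0.01 with the length trend removed, 0.03 to 0.07 in the other alternatives with all livers, and -0.06 (without *Ctrl* 4) to 0.12 (without *Ctrl* 3) with 1 liver left out.

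Over 62 named genes and 16 alternatives, 935 of 992 log2 fold changes kept their sign, and 20 of these passed an adjusted p of 0.05. The sign changed in 57 cases, in 20 genes that no setting called. With limma-voom the values were 0.068 for *Dhx58*, 0.0023 for *Ifit2*, 0.071 for *Oasl2*, 0.0085 for *Rsad2*, 0.034 for *Usp18*, 0.11 for *Gbp2*, 0.026 for *Iigp1* and 0.17 for *Ifngr2*. With the length trend removed they were 0.035 for *Stat2*, -0.095 for *Ifit3*, -0.059 for *Oas1a*, -0.14 for *Isg15*, -0.015 for *Igtp*, -0.026 for *Rtp4* and 0.011 for *Ifngr2*. With the replicate block *Iigp1* was at 0.012, and *Psmb10* passed (edgeR adjusted p = 0.047), while no member did. The labels do not say that a replicate number marks a shared animal, litter or day. Same-numbered livers deviated from their group means with correlations of -0.18, 0.21, 0.27 and 0.22, and 5 of 8 livers correlated best with their own number. Whether this marks any pairing was not tested. With 1 liver left out, these genes ranged across 0, in *Cxcl10* (-0.045 to 0.54), *Dhx58* (-0.25 to 0.0032), *Gbp2* (-0.21 to 0.15), *Ifit1* (-0.13 to 0.33), *Ifit2* (-0.24 to 0.031), *Ifit3* (-0.049 to 0.21), *Ifit3b* (-0.14 to 0.094), *Ifnar2* (-0.023 to 0.10), *Ifngr2* (-0.13 to 0.12), *Igtp* (-0.086 to 0.18), *Iigp1* (-0.15 to 0.056), *Irf7* (-0.13 to 0.081), *Irgm1* (-0.0305 to 0.15), *Isg15* (-0.012 to 0.41), *Oas1a* (-0.10 to 0.17), *Oasl2* (-0.056 to 0.068), *Rsad2* (-0.24 to 0.038), *Rtp4* (-0.043 to 0.29), *Stat2* (-0.20 to 0.014) and *Usp18* (-0.16 to 0.034). At this depth the ligand genes, with 19 reads in all, could not be compared, and the member with the fewest reads, *Mx1*, had as few as 48 in 1 liver.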

Other observations

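MHC class II, which presents peptides taken up from outside the cell, had no called gene. Of 8 genes tested, none was called by edgeR or DESeq2, which called 0.071% and 5.27% of all genes. *Cd74*, the invariant chain, was at 51 and 57.2 CPM in *Ctrl* and *Srsf10-kd*. *Ciita*, the master regulator of these genes, was at 1.13 ± 0.239 CPM (SD, n = 4) in *Ctrl* and 0.718 ± 0.149 CPM (SD, n = 4) in *Srsf10-kd*. Its log2 fold change was -0.65 ± 0.22 (SE, edgeR unadjusted p = 0.0144, adjusted p = 0.16), and the groups overlapped, although 6 of 8 genes of the list had values above 0.

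Of 15293 genes outside the lists, 3 had a log2 CPM that correlated above 0.9 with the median deviation of the members over the 8 livers. These were *Stx11* (0.926), *Sumo3* (0.914) and *Tmem140* (0.911). Next came *Gm26759* (just under 0.9), the gene ENSMUSG00000104003, for which no symbol was at hand (0.892), *Ift22* (0.884), *Hsd17b12* (0.883), *Cdc14a* (0.882), *Fbxo2* (0.879) and *Gm12250* (0.879), which belongs to the interferon-inducible GTPase family. *Stx11*, *Gm26759*, ENSMUSG00000104003 and *Fbxo2* lay under 1 CPM. *Sumo3*, a ubiquitin-like modifier, was at 66.1 CPM and *Hsd17b12*, an enzyme of fatty acid elongation, at 230.5 CPM. They were picked for this likeness out of all genes, so the values are a description.

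Members with an ISRE core in a window (17) had a median log2 fold change of 0.07, those with a GAS core and no ISRE core (4) 0.24, and those with neither (9) -0.01, and the median transcript lengths of these classes were 2516, 2022 and 3240 bases.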
